A study of Mus musculus with 45 samples.

Results

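The 9 genes described here encode the receptor for leukaemia inhibitory factor (LIF) and the pathway behind it: the receptor chains Lifr, Il6st and Osmr, the kinase Jak1, the transcription factor Stat3, and the genes Socs3, Bcl3, Pim1 and Pim3, which are known to respond to STAT3. They were chosen by symbol, as 9 of the 23575 genes and 154 of the 276608 transcripts in the deposited tables. All 9 were found. The outer bounds of their deposited transcripts (mm10) are chr15:7090609-7197484 for Lifr, chr13:112464078-112509347 for Il6st, chr15:6813574-6874334 for Osmr, chr4:101151639-101265311 for Jak1, chr11:100886810-100939599 for Stat3, chr11:117966079-117970984 for Socs3, chr7:19808462-19824047 for Bcl3, chr17:29490644-29496111 for Pim1 and chr15:88862186-88865726 for Pim3. Osmr was at 0 in 20 of 45 libraries and Bcl3 in 6, and each of the other 7 genes had reads in every library.

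The cells were mouse neural progenitors derived from the Oct4-GFP embryonic stem cell line O4G, and embryonic stem cells. Progenitors were wild type (WT) or carried a doxycycline-inducible OKMS or OKS reprogramming cassette with a luciferase element, and were grown on Geltrex in N2B27 with EGF, FGF-2 and heparin. The 2 systems differ in name by M, which stands for Myc. For induction, cells went onto gelatin in serum-LIF, which holds 15% fetal bovine serum and LIF, with doxycycline. Some were later transferred to 2i-LIF, which has no serum but LIF and the inhibitors CHIR-99021 and PD0325901, on day 6 in R9 and on a day not given in R10. For serum-LIF the labels name doxycycline, which switches the factors on, and for 2i-LIF they name none. WT progenitors held for 2 days in serum-LIF with doxycycline served as non-reprogramming controls, and in them serum, LIF, doxycycline, the new coating and the loss of EGF and FGF-2 came together, so that these cannot be told apart. Stem cells were WT and grown in 2i-LIF, and came from the lines O4G, R1 and R1-Clone3, of which the last is 1 clone by its name. Libraries were Oxford Nanopore long-read cDNA, 22 from R9 flow cells (direct cDNA of poly(A)-enriched RNA) and 23 from R10 flow cells (PCR cDNA of total RNA). Nothing says that replicates came from separate cultures, so p-values measure only the spread between these libraries, which may be technical.

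LIF binds the LIF receptor, the product of Lifr, which pairs with gp130, the product of Il6st and the shared signalling chain of the interleukin-6 family. Kinases of the JAK family bound to these chains, JAK1 above all, phosphorylate STAT3, which then enters the nucleus and activates genes, among them Socs3, whose product binds gp130 and shuts the receptor down. In mouse embryonic stem cells this pathway sustains self-renewal, and in neural progenitors the same cytokines drive cells towards astrocytes.

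The promoters of 4 members are shown because their genes were at or near 0 in progenitors, or were among the most changed in serum-LIF. They are RefSeq sequences of build GRCm38.p6 on the gene's strand, at chr11:117969317-117969616 (minus strand) for Socs3, chr13:112463820-112464119 (plus) for Il6st, chr15:6874264-6874563 (minus) for Osmr and chr7:19822706-19823005 (minus) for Bcl3. Capitals mark matches on either strand to TTCNNNGAA, the palindrome of STAT binding, and to GGGCGG or CCGCCC, the core of the GC box.
Socs3 promoter: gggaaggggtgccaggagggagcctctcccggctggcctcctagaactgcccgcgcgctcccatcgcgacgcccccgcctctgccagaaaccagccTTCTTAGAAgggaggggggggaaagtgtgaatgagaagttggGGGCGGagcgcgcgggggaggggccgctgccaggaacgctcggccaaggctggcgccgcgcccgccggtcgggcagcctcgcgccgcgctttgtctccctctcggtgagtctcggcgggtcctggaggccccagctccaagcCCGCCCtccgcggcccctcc
Il6st promoter: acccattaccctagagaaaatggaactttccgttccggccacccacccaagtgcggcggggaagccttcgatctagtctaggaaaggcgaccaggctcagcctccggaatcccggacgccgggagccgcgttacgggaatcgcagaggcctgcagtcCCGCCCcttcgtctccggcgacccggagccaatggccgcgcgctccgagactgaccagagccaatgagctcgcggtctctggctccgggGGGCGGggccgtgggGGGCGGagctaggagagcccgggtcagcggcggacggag
Osmr promoter: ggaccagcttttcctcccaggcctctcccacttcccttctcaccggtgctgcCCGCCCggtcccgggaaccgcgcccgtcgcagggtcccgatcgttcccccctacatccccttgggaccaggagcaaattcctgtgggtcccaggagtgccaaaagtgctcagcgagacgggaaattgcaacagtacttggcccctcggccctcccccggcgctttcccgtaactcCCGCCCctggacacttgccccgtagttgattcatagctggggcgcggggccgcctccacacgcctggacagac
Bcl3 promoter: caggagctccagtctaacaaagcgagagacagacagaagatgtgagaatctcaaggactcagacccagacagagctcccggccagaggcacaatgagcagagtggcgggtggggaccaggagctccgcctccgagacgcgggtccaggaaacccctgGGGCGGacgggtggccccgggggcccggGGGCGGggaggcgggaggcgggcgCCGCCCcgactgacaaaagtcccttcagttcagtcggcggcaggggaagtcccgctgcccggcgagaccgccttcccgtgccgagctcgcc
Among the promoters of the 9 genes, only that of Socs3 held TTCNNNGAA, as TTCTTAGAA from 154 to 146 bases before the start. This motif was in 8.30% of 32851 RefSeq promoters of the same length (2726). The GC box core occurred 2 times in the Socs3 window, 3 times in that of Il6st, 2 times in that of Osmr and 3 times in that of Bcl3, and 35.7% of all promoters held it at least once. The Osmr window held 1 TGANTCA, the AP-1 motif, which 7.81% of all promoters hold. These matches describe letters in a window, and no binding was measured.

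R9 libraries held 447990 to 1390424 reads and R10 libraries 566599 to 4236442, recovered from the deposited CPM, the reads of a gene scaled to a fixed total per library. The share of reads from mitochondrial genes varied over the R10 libraries. It was 0.124 to 0.319% in the WT progenitors, the WT serum-LIF cells and 1 R1 stem cell library whose title carries no n number, and 1.56 to 2.35% in the other 6 stem cell libraries and the day 18 libraries. The remaining 8 R10 libraries, the OKMS and OKS progenitors among them, lay at 0.730 to 1.64%. Markers fitted the labels in part. Pluripotency genes summed to 16.3 to 30.4 CPM in R10 progenitors and 11192 to 13758 CPM in R10 stem cells, neural progenitor genes summed to 3938 to 5133 and 4.93 to 38.1 CPM, and the neural progenitor gene Sox1 was at 0 in the progenitors. In bulk RNA, fewer cells of a type and less RNA per cell cannot be told apart.

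**Figure D1:**
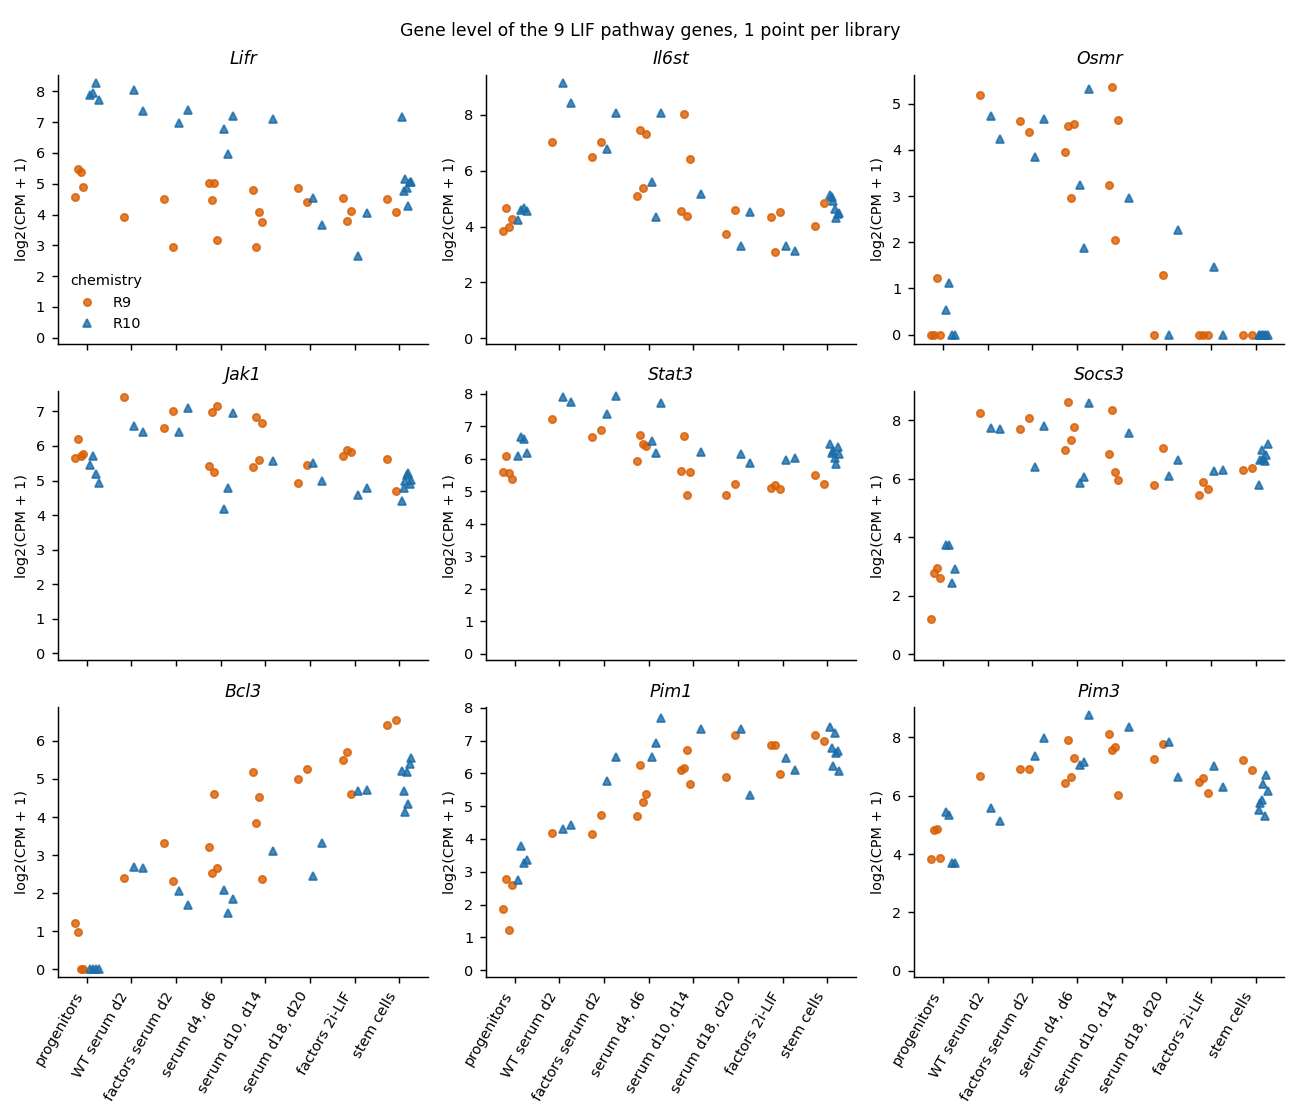
Level of each of the 9 genes in all 45 libraries, as log2(CPM + 1) on the vertical axis, by class of cells on the horizontal axis; orange circles are R9 and blue triangles R10 libraries, 1 point per library. Socs3, Bcl3 and Pim1 lie lowest in progenitors, Osmr is near 0 in progenitors, stem cells and the latest serum-LIF days and higher on earlier days in serum-LIF, and Il6st in R10 peaks in WT cells in serum-LIF at 347 and 565 CPM.

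The first comparison asked what 2 days of serum-LIF did to WT progenitors without reprogramming factors. The signalling chain Il6st, the related chain Osmr, the kinase, Stat3 and 3 of the 4 responsive genes rose, while Lifr itself did not pass the test. In the R10 libraries 7 of 9 genes were called, all higher, where 26.8% of all 14688 genes tested were called in either direction. Called means a Benjamini-Hochberg adjusted p under 0.05 and an absolute difference of at least 1 on the log2(CPM + 1) scale, from limma fitted over all genes. The median difference of the 9 genes was 1.65, and that of all genes was 0.12. The arms were 2 libraries each.

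Among the receptor chains, Lifr was at 306 and 210.0 CPM in the WT progenitors and at 260 and 163 CPM in serum-LIF. These ranges overlap, and the difference was -0.30 ± 0.32 (SE, limma adjusted p = 0.53). Il6st, the shared signalling chain, was at 24.1 and 22.4 CPM in progenitors and at 565 and 347 CPM in serum-LIF. Both treated libraries lay far above both controls, a 19.6-fold ratio of means (456 ± 155 against 23.3 ± 1.24 CPM, SD, n = 2 each) and a log2 difference of 4.19 ± 0.29 (SE, limma adjusted p = 0.0015). Osmr, which pairs with gp130 to bind oncostatin M, had no read in either progenitor library and was at 25.4 and 17.8 CPM in serum-LIF. With 119 reads against 0, Osmr was at least 47.1-fold higher when 3 reads over the arm are set as the floor. Its fitted difference was 4.48 ± 0.41 (SE, limma adjusted p = 0.0026).

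Jak1 was at 35.3 and 29.6 CPM in progenitors and at 95.1 and 84.3 CPM in serum-LIF, 2.77-fold higher without overlap (log2 difference 1.44 ± 0.23, SE, limma adjusted p = 0.0099). Stat3 was at 96.2 and 71.4 CPM in progenitors and at 237 and 213 CPM in serum-LIF, 2.69-fold higher (1.43 ± 0.23, SE, limma adjusted p = 0.011). For both genes the treated libraries lay above the controls.

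Socs3, the feedback inhibitor, was at 4.45 and 6.60 CPM in progenitors and at 211 and 206 CPM in serum-LIF. This 37.8-fold ratio was the largest among the members with reads in both arms, with a log2 difference of 5.03 ± 0.27 (SE, limma adjusted p = 0.0011). Bcl3, an atypical member of the IκB family that acts in the nucleus, had no read in the progenitors and was at 5.48 and 5.27 CPM in serum-LIF, at least 11.9-fold higher from 30 reads (fitted difference 2.67 ± 0.36, SE, limma adjusted p = 0.0061). Pim3, a serine/threonine kinase, was at 12.1 CPM in both progenitor libraries and at 47.0 and 33.9 CPM in serum-LIF, 3.35-fold higher (1.65 ± 0.30, SE, limma adjusted p = 0.014). Its relative Pim1 was at 8.57 and 9.18 CPM in progenitors and at 18.8 and 20.4 CPM in serum-LIF. These groups did not overlap, but Pim1 missed the threshold (1.06 ± 0.32, SE, limma adjusted p = 0.057).

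Leaving out a library leaves an arm of 1, and the size of the differences then moved little: over the 4 such fits Socs3 ranged from 4.79 to 5.27, Il6st from 3.84 to 4.55 and Osmr from 4.23 to 4.72. Calls were few in those fits for all genes alike, with 3 members (Il6st, Osmr and Bcl3) of 7.04% of genes without WT serum-LIF replicate 3, and no member and no gene without any other library. Osmr and Bcl3 had no read in either R10 WT progenitor library, so without replicate 3 neither arm gave them a spread. In R9 there was 1 serum-LIF library against 2 progenitor libraries, so the treated arm has no spread of its own. Calls from that fit are not read. Osmr had no read in the R9 progenitors and was at 35.4 CPM in serum-LIF, at least 21.0-fold higher (log2 difference 5.18). With both progenitor libraries at 0, it had no spread in either arm. The R9 values of the others were 6.26 for Socs3, 2.77 for Il6st, 2.34 for Pim3, 1.85 for Pim1, 1.5 for Jak1, 1.38 for Stat3, 1.29 for Bcl3 and -1.10 for Lifr. Astrocyte markers summed to 2394 to 4461 CPM in R10 WT serum-LIF cells against 273 to 424 CPM in R10 progenitors, with 3 of 7 called higher, and their part in the change of the members was not tested.

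**Figure D2:**
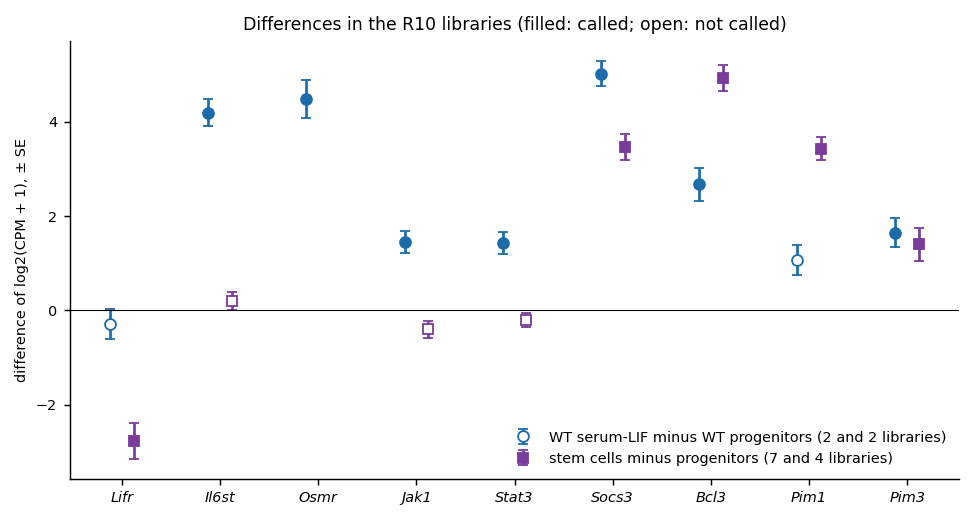
Difference of each gene on the log2(CPM + 1) scale with its standard error, in R10: WT serum-LIF minus WT progenitors as blue circles (2 libraries each) and stem cells minus progenitors as purple squares (7 and 4 libraries), filled where called. Socs3 (5.03), Osmr (4.48) and Il6st (4.19) lie highest in serum-LIF, Bcl3 (4.93), Socs3 (3.46) and Pim1 (3.43) in stem cells, and Lifr is the only called gene below 0, at -2.77 in stem cells.

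Changes in the wider pathway were seen in STAT3-responsive genes, and the lists were chosen with earlier results of these data known. The counts are read beside the 26.8% of all genes called here, which the receptor chains and the JAK and STAT genes did not exceed. Of the ligands of the family, 2 were tested and both rose in WT serum-LIF cells, Cntf to 86.4 from 0.605 CPM (log2 difference 5.76) and Clcf1 to 43.0 from 0.287 CPM (5.06). Under the filter of 1 CPM in progenitors, they were tested only through the serum-LIF arm, so this count was close to fixed. Both bind the receptor complex of ciliary neurotrophic factor. Of 4 other receptor chains tested 1 rose, Il6ra, the interleukin-6 receptor, from 0 to 10.6 CPM (3.54). It too passed the filter only through the serum-LIF arm. Of 7 other JAK and STAT genes 1 rose (Jak3, 2.97), and of 14 SOCS, PIAS and phosphatase genes none was called, with a median of -0.02. Among 21 other genes known to respond to STAT3, 11 rose and 4 fell, with a median of 1.82 against 0.12 for all genes. Gfap, the intermediate filament protein of astrocytes and also on the astrocyte list, rose to 2036 ± 1386 CPM from 5.44 CPM (8.12), Lcn2, an iron-carrier protein, rose by 5.86, and the metalloreductase gene Steap4 rose by 4.34. Ccnd1, which encodes cyclin D1, fell by 5.24, from 439 to 10.9 CPM, Myc fell by 4.04 and Vegfa fell by 2.17.

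Stem cells in 2i-LIF were next compared with progenitors in their own medium. Stem cells had far more Socs3, Bcl3 and Pim1, more Pim3 and less Lifr, while Il6st, Jak1 and Stat3 did not pass the test. In R10, with 7 against 4 libraries, 5 of the 8 genes tested were called, where 45.8% of all 15415 genes were, so the count itself is near the background. The median of the 8 was 0.80 and that of all genes 0.01. Osmr could not be tested, since it was at 0 in all 7 stem cell libraries and at most at 1.17 CPM in progenitors.

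Bcl3 had no read in any of the 4 R10 progenitor libraries and was at 16.6 to 46.3 CPM in the 7 stem cell libraries, at least 114-fold higher from 711 reads (fitted difference 4.93 ± 0.27, SE, limma adjusted p = 3.4e-10). Socs3 was at 4.45, 6.60, 12.3 and 12.3 CPM in progenitors and at 105 ± 28.5 CPM in stem cells (SD, n = 7; 3.46 ± 0.27, SE, limma adjusted p = 2.1e-08). Pim1 was at 5.71 to 12.9 CPM in progenitors and at 66.3 to 171 CPM in stem cells (3.43 ± 0.25, SE, limma adjusted p = 9.3e-09). For these 3 genes no stem cell library reached down to a progenitor library. Pim3 was at 12.1 CPM in both WT progenitor libraries, at 42.6 and 39.1 CPM in OKMS and OKS progenitors and at 38.7 to 103 CPM in stem cells. The stem cells overlapped the OKMS and OKS progenitors but not the WT ones (1.40 ± 0.35 against all 4, SE, limma adjusted p = 0.0023).

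Lifr went the other way. The 4 R10 progenitor libraries were at 210.0 to 306 CPM, 6 stem cell libraries at 18.2 to 34.5 CPM, and the R1 library without an n number at 143 CPM. No stem cell library overlapped the progenitors (44.8 ± 43.5 against 250 ± 40.6 CPM), and the difference was -2.77 ± 0.38 (SE, limma adjusted p = 1.0e-05), or -3.10 without that R1 library. Within R10 this R1 library is the only stem cell sample of low mitochondrial share, whereas both R9 stem cell libraries had low shares (0.310 and 0.344%). Set alone against the progenitors, as an arm of 1 library with no spread of its own, its differences were 5.20 for Bcl3, 4.14 for Pim1, 2.57 for Socs3, 0.95 for Pim3 and -0.79 for Lifr. Of these Bcl3 and Pim1 were called, beside 29.1% of 17534 genes. Progenitors with mitochondrial shares of 1.08 and 1.12% (OKMS and OKS) were at 237 and 247 CPM of Lifr. No R10 progenitor library reached the share of 1.56 to 2.35% of the other 6 stem cell libraries and the day 18 libraries. Lifr was low in the day 18 libraries too, at 11.5 to 22.3 CPM in serum-LIF and 5.29 to 15.6 CPM in 2i-LIF. The part of the share in the Lifr difference was not tested. What set the R1 library apart was not tested.

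The R9 libraries (2 of stem cells and 4 of progenitors) gave 4 of 8 members called, beside 36.0% of 15746 genes. These were the 4 responsive genes, higher in stem cells: Bcl3 by 5.94 ± 0.47, Pim1 by 4.95 ± 0.47, Socs3 by 3.95 ± 0.52 and Pim3 by 2.70 ± 0.38 (SE, limma adjusted p between 0.00018 and 0.0017). Socs3 was at 77.6 and 81.9 CPM in the R9 stem cells and at 1.34 to 6.73 CPM in the progenitors, and Pim1 at 142 and 125 CPM against 1.35 to 5.81 CPM, without overlap. Lifr was at 21.8 and 15.8 CPM in the R9 stem cells and at 22.7 to 43.6 CPM in the progenitors, and its difference of -0.79 ± 0.32 was not called (SE, limma adjusted p = 0.091). The difference between the chemistries was tested in an interaction added after the data had been seen, and 0 of 9 members passed, beside 3.63% of 18341 genes called and 3813 genes at an unadjusted p under 0.05. Lifr came nearest, with -1.99 ± 0.59 (R10 minus R9, SE, limma adjusted p = 0.061). The stem cell libraries of R10 enter the later comparison with 2i-LIF cells as well, and the WT progenitors that of serum-LIF, so the comparisons share libraries.

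In the wider pathway, R10 stem cells had lower receptor chains than progenitors for 3 of 4 tested, Il11ra1 (-3.34) and Cntfr (-2.47) among them, and higher Il6ra (3.46). The Il6ra difference was larger in R10 than in R9, by 2.49 (limma adjusted p = 0.024 in the interaction). Of the other list genes the interaction called Ctf1 (-1.64, adjusted p = 0.018) and Sall4 (1.503, adjusted p = 0.036). The ligand gene Lif, the 1 ligand tested, was higher by 2.11. At 0.269 CPM in progenitors, it passed the filter only through the stem cells. These counts, and those that follow, are read beside the 45.8% of all genes called here. JAK and STAT genes were split, with 2 of 8 higher (Stat6, 4.04, and Jak3, 3.82) and 2 lower (Stat5b, -2.04, and Jak2, -1.18). Of 15 SOCS, PIAS and phosphatase genes 6 were higher, Ptpn6 (3.56) among them, and 5 lower, Ptpn1 (-2.25) among them, with a median of -0.42. Of 19 other STAT3-responsive genes 7 were higher and 5 lower, with a median of 0.41 against 0.01 for all genes. The higher ones included the pluripotency factors Tfcp2l1 (7.30), Sall4 (7.0) and Klf5 (5.81), and the lower ones Ier3 (-5.21), Myc (-4.85) and Vegfa (-2.0).

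**Figure D3:**
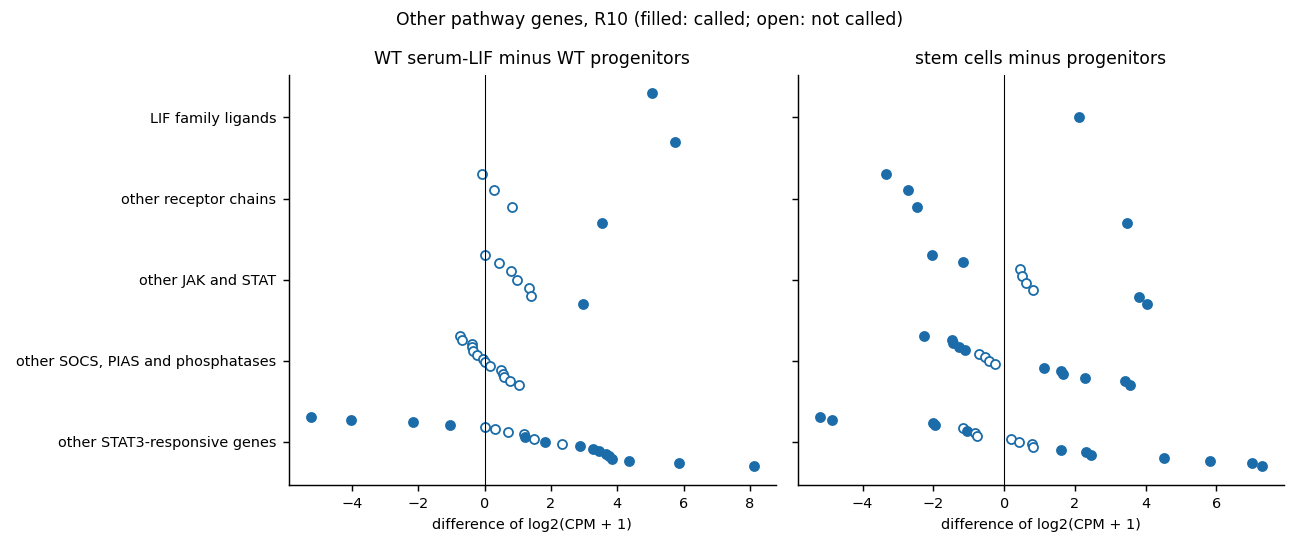
Differences on the log2(CPM + 1) scale of the other genes of the pathway in R10, by list, for WT serum-LIF minus WT progenitors and for stem cells minus progenitors, 1 point per gene and filled where called. Cntf and Clcf1 are the only 2 ligands tested in serum-LIF, and the STAT3-responsive genes spread from -5.24 to 8.12.

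The transcript table showed what was counted under Lifr. In R10 the leading Lifr transcript was Lifr.116, with 2 exons and 2996 bases at chr15:7193510-7196555 (mm10), which lie wholly inside the annotated 3′ untranslated region that starts at 7191167. It began 2343 bases past the start of that region and read over a gap of 50 bases (7195171 to 7195220). In the 4 R10 progenitor libraries it was at 146, 155, 187 and 120 TPM, a share of all transcripts, while the transcript with the long receptor frame, Lifr.15 with 20 exons and 1072 residues, was at 0.537 to 1.18 TPM. Transcripts without the receptor frame made up 97.4% of Lifr TPM in R10 progenitors, 98.8% in WT serum-LIF cells, 91.0% in stem cells and 91.6% in R9 progenitors. So in the transcript table most of Lifr was assigned to fragments of its 3′ end, and the Lifr levels above cannot be read as levels of the full receptor message.

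The level of Lifr.116 differed widely between libraries. It was at 192 and 109 TPM in the R10 WT serum-LIF libraries, 84.0 TPM in OKMS cells of day 2, 88.0 TPM in OKMS cells of day 10, 78.4 TPM in the R1 stem cell library without an n number and 3.58 to 9.10 TPM in the other 6. It was listed at 0 in OKS cells of days 2 and 6, OKMS cells of days 4 and 6 and all day 18 libraries of R10, although the gene was at 166 and 145 CPM in the OKS libraries. A 0 in this table is thus no measure of absence. In R9 progenitors Lifr.116 was at 4.90 to 11.4 TPM. Whether counting used the strand is not given in the sources used here.

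Shares of a gene's TPM were tested for genes of at least 5 TPM, with a change of at least 20 percentage points as the threshold. Between R10 stem cells and progenitors, 1 of the 2 members tested had a called transcript, where 1286 of 4184 genes had one. Of the 12465 transcripts tested, 14.4% were called. In Lifr the share of Lifr.116 went from 94.0% in progenitors to 55.1% in stem cells, and fell by 38.9 points (limma adjusted p = 0.0040). The share of Lifr.118, which has 2 exons in the same untranslated region and runs on to 7197484, went from 3.38 to 31.8% and rose by 28.4 points (limma adjusted p = 0.0084). With a minimum of 10 TPM no member could be tested. For Stat3 the leading full-length transcript Stat3.158 held 29.9% in progenitors and 36.6% in stem cells (limma adjusted p = 0.34). Between WT serum-LIF cells and progenitors, Stat3 was the 1 member tested and 0 were called, where 344 of 4813 genes had a called transcript. Of 13362 transcripts 3.01% were called and 2496 were at an unadjusted p under 0.05.

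The other members differed in how far their transcripts held the full frame. Transcripts with the full-length gp130 frame of Il6st were at 25.4 ± 9.99 TPM in R10 WT serum-LIF cells and at 1.57 ± 0.396 TPM in WT progenitors, so the higher level of the gene was also seen in these. The leading Il6st transcript there, Il6st.46 with 738 of 917 residues, was at 70.1 and 33.5 TPM in serum-LIF and at 0.751 to 2.83 TPM in progenitors. Stat3.158, with 24 exons and 770 residues, was at 4.56 ± 1.30 TPM in progenitors, 12.9 ± 2.83 TPM in WT serum-LIF cells and 6.35 ± 1.963 TPM in stem cells of R10. Transcripts with the end of STAT3 alpha held 62.1, 48.1 and 62.0% of Stat3 TPM in these classes, and those of the shorter STAT3 beta, which lacks most of the transactivation domain, 9.24, 8.47 and 9.50%. The exons that tell the 2 forms apart start 50 bases apart on the gene's strand. Osmr.12, with 18 exons and all 971 residues, was at 1.92 and 2.18 TPM in WT serum-LIF cells. No listed Jak1 transcript held its full frame of 1153 residues.

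For Socs3 and Pim3 a short non-coding transcript took much of the TPM in some libraries and none in others. Socs3.25, with 2 exons, was listed at 0 in 25 of 45 libraries and at 48.8 to 1256 TPM in the other 20. The full Socs3 frame therefore held 100% of the TPM of the gene in R10 progenitors, 29.4% in WT serum-LIF cells and 37.5% in stem cells. Pim3.180, with 3 exons and a retained intron, was listed at 0 in 28 libraries and at 24.2 to 711 TPM in the other 17. Levels of these genes are read from gene CPM here for that reason.

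**Figure D4:**
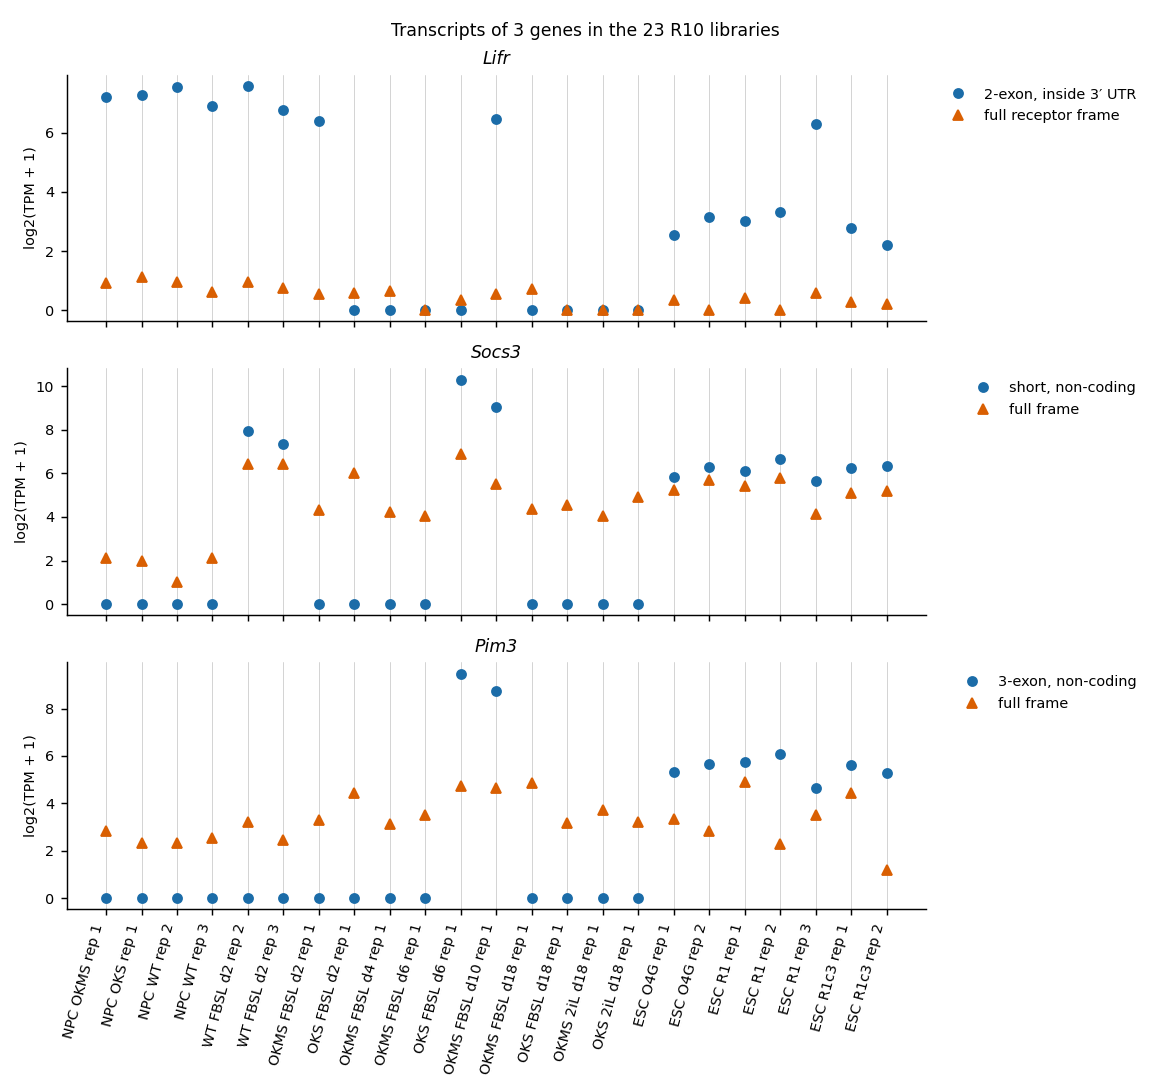
Levels of paired transcript forms as log2(TPM + 1) in the 23 R10 libraries, for Lifr (the 2-exon form inside the 3′ untranslated region and the long receptor frame), Socs3 (the short non-coding form and the full frame) and Pim3 (the 3-exon non-coding form and the full frame). The Lifr fragment reaches 192 TPM beside a receptor form near 1 TPM, and the short Socs3 and Pim3 forms are either at 0 or high.

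During reprogramming in serum-LIF the R9 libraries were taken on days 2, 4, 6, 10, 14 and 20, each system giving 1 library a day. The members took different courses: Socs3, Osmr, Il6st and Stat3 differed most from progenitors on day 2, Pim3 on day 10, and Bcl3 and Pim1 on day 20. Against day 0, the progenitors of the same system, 7 of 9 genes were called in limma's moderated F test, where 10.7% of 19357 genes were called. Day 0 was in progenitor medium, so time, medium and factors cannot be told apart in these differences. The 1 R9 library of WT cells on day 2 in serum-LIF, without factors, was at 306 CPM of Socs3, 35.4 of Osmr, 129 of Il6st and 147 of Stat3. The exceptions were Lifr (adjusted p = 0.29) and Jak1 (adjusted p = 0.21). The median of the members' largest differences was 3.47, and that of all genes was 0.63.

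Socs3 was at 6.73 CPM in OKMS and 5.06 CPM in OKS progenitors. In OKMS cells it was at 207, 125, 158, 114, 73.9 and 54.2 CPM over the 6 days, and in OKS cells at 269, 397, 220, 328, 62.0 and 132 CPM. Every day lay above day 0, by 5.11 on day 2 and 3.65 on day 20 (limma adjusted p = 0.00045). Osmr was at 1.35 and 0 CPM in these progenitors, at 23.7 and 20.1 CPM on day 2, and at 0 and 1.44 CPM on day 20 in OKMS and OKS cells. Its difference from day 0 was 3.90 on day 2 and 0.03 on day 20 (limma adjusted p = 0.024), high on day 2 and near the progenitors on day 20. Il6st followed with 2.62 on day 2 and 0.02 on day 20 (adjusted p = 0.043), and Stat3 with 1.32 and -0.41 (adjusted p = 0.026), both from limma.

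Bcl3 had no read in either progenitor library. In OKMS cells it was at 9.04, 8.35, 23.2, 35.2, 22.2 and 30.8 CPM over the 6 days, and in OKS cells at 4.01, 4.77, 5.36, 13.4, 4.14 and 37.4 CPM. Its largest difference from day 0 was 5.13, on day 20 (limma adjusted p = 0.0092). Pim1 was at 1.35 and 5.06 CPM in the progenitors and at 57.9 and 144 CPM on day 20 in OKMS and OKS cells (4.62, limma adjusted p = 0.0027). Pim3 was highest against day 0 on day 10 (3.47, limma adjusted p = 0.025), at 274 CPM in OKMS and 187 CPM in OKS cells. When each of the 14 libraries was left out in turn, Socs3, Bcl3 and Pim1 were called in all 14 fits, Osmr and Pim3 in 10, Stat3 in 7 and Il6st in 3.

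Within serum-LIF, against day 2, 3 of 9 members were called, all lower, beside 7.23% of 18925 genes. Osmr was lower by day 20 (-3.87, limma adjusted p = 0.029), Stat3 by day 20 (-1.72, adjusted p = 0.025) and Socs3 by day 14 (-1.79, adjusted p = 0.049). This count moved with the method, as did that of all genes. edgeR and DESeq2 on the recovered reads each called 6, beside 21.1 and 11.2% of all genes. They added Il6st, which was lower (-2.70 and -2.63), and Bcl3 (2.79 and 2.85) and Pim1 (2.38 and 2.37), which were higher. Quantile normalization called 0, beside 3.73%. With the R10 libraries added 6 were called as well, beside 28.7% of 20540 genes, among them Lifr at -2.71 (limma adjusted p = 0.0091). In R10, Lifr went from 123 and 166 CPM on day 2 to 22.3 and 11.5 CPM on day 18 in OKMS and OKS cells, and Il6st from 109 and 265 CPM to 8.90 and 21.8 CPM. Lifr did not fall in R9, at 21.5 and 6.69 CPM on day 2 and 28.3 and 20.1 CPM on day 20. It was not called there (largest difference 1.02, limma adjusted p = 0.57). Mitochondrial shares in these R10 libraries were 1.51 and 1.64% on day 2 and 2.03 and 2.04% on day 18, and their part was not tested. Cell type markers moved over the same R9 days: against day 2, 8 of 8 pluripotency markers were called higher (median 6.21) and 4 of 7 astrocyte markers lower (median -3.33). The summed astrocyte markers were at 875 to 1633 CPM on day 2 and 123 to 206 CPM on day 20, and the pluripotency markers at 71.2 to 89.6 and 9020 to 10402 CPM. Their part in the members' courses was not tested.

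**Figure D5:**
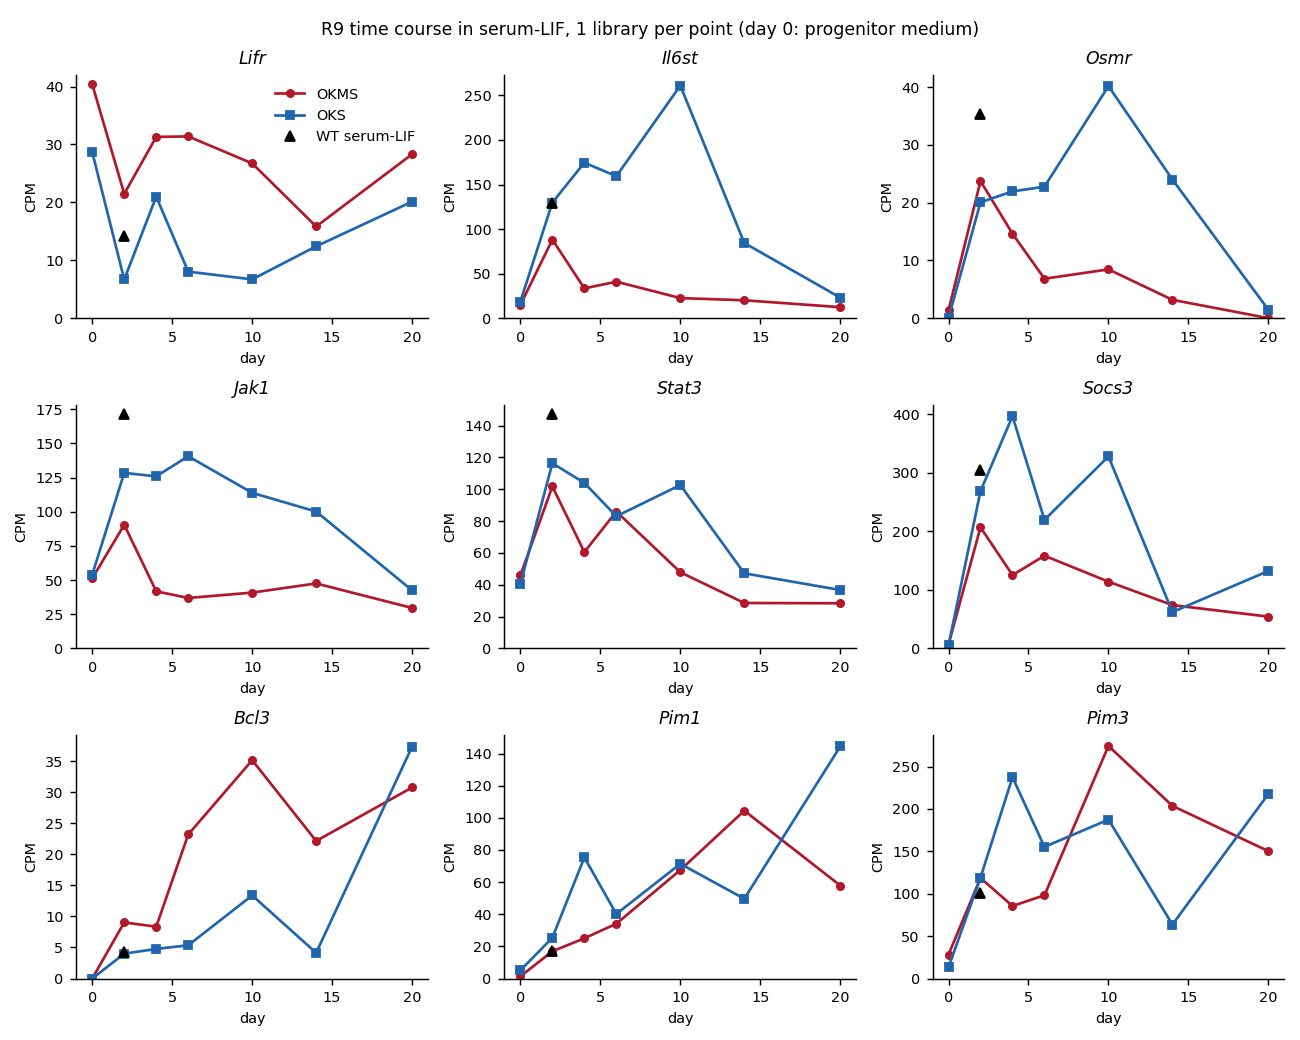
Level of each gene in R9 libraries as CPM against day in serum-LIF, with OKMS cells in red, OKS cells in blue and the WT serum-LIF library of day 2 as a black triangle; day 0 is the progenitors, and each point is 1 library. Il6st stays between 84.4 and 261 CPM in OKS cells until day 14 while it lies at 20.0 to 88.1 CPM in OKMS cells, and both systems are at or under 22.99 CPM on day 20.

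In the same fit, where 10.7% of all genes were called, 13 of 23 other STAT3-responsive genes were higher than day 0 and 1 lower (Ccnd1, -2.90), with a median of 3.49 against 0.63 for all genes. The highest were Gfap (7.22), the immediate early gene Junb (5.82) and Lcn2 (5.43). The ligands Clcf1 (5.14) and Cntf (4.62) rose, 2 of 4 tested, as did Il6ra (3.96), 1 of 5 receptor chains, and Jak3 (3.82), 1 of 9 JAK and STAT genes, a share near that of all genes. Of the feedback genes 3 of 15 rose, Socs1 (3.69), Cish (3.25) and Socs2 (2.73). Within serum-LIF, Cntf (-5.23), Clcf1 (-4.31), Gfap (-6.82) and Lcn2 (-5.75) were lower than on day 2.

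OKMS and OKS cells were compared over the 6 R9 days as pairs, with 1 library per system and day. The SD is thus the spread over days of a course. The p-values measure how steady a difference was over days, not over replicate cultures. OKMS cells had less Il6st, Osmr and Jak1 and more Lifr and Bcl3 than OKS cells, with 5 of 9 members called beside 18% of 14277 genes. Il6st was at 88.1, 33.4, 40.9, 22.5, 20.0 and 12.3 CPM in OKMS cells and at 130, 175, 159, 261, 84.4 and 22.99 CPM in OKS cells. OKMS cells were lower on 6 of 6 days (-1.86 ± 0.31, SE, limma adjusted p = 0.0017). Jak1 was lower in OKMS cells on 6 of 6 days, at 47.8 ± 21.7 against 109 ± 35.2 CPM (SD, n = 6; -1.17 ± 0.22, SE, limma adjusted p = 0.0027). Osmr was lower on 5 of 6 days, at 9.46 ± 8.57 against 21.7 ± 12.3 CPM (-1.32 ± 0.40, SE, limma adjusted p = 0.027). On day 14 Il6st was still at 84.4 CPM and Osmr at 24.0 CPM in OKS cells, against 20.0 and 3.17 CPM in OKMS cells.

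Lifr was higher in OKMS cells on 6 of 6 days, at 25.8 ± 6.11 against 12.5 ± 6.60 CPM (1.10 ± 0.31, SE, limma adjusted p = 0.020), and Bcl3 on 5 of 6 days, at 21.4 ± 10.99 against 11.5 ± 13.2 CPM (1.14 ± 0.36, SE, limma adjusted p = 0.033). Without a day in turn, Il6st and Jak1 were called in 6 of 6 fits, Lifr and Osmr in 3 and Bcl3 in 1. In the R10 pairs Lifr was lower in OKMS cells on days 2 and 6 (-0.42 and -1.21) and higher on day 18 (0.89). Bcl3 there was higher on day 2 (0.36) and lower on days 6 and 18 (-0.36 and -0.87), and Jak1 was lower on days 2 and 6 (-0.69 and -2.16) and higher on day 18 (0.52). With these pairs added, Lifr and Bcl3 were no longer called (limma adjusted p = 0.096 and 0.14), while Jak1 was (adjusted p = 0.0040). The systems also differed in how far they had come, since pluripotency markers summed to 5574 CPM in OKMS and 114 CPM in OKS cells on day 10, and to 10402 and 9020 CPM on day 20. Astrocyte markers were lower in OKMS cells for 5 of 7 genes and higher for 1. The part of either in the members' differences was not tested. The wider pathway is read beside the 18% of all genes called here. Of 4 ligands OKMS cells had more Lif (1.57) and less Clcf1 (-2.0) and Cntf (-1.36, limma adjusted p = 0.04999). Of 4 other receptor chains 2 were lower, Il11ra1 (-1.57) and Il6ra (-1.30). Of 8 JAK and STAT genes 1 was lower (Jak2, -1.30), and edgeR called 0. Of 15 SOCS, PIAS and phosphatase genes 1 was lower (Cish, -1.32). Both of these shares are under that of all genes. Of 22 other STAT3-responsive genes 1 was higher (Sall4, 2.70) and 6 lower, Gfap (-2.37), Fos (-2.17) and Junb (-1.90) among them.

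On day 2 in R10, cells with factors were set against WT cells in the same medium, 2 libraries each. Of 9 members 1 was called, beside 0.740% of 15402 genes. Pim3 was at 164 and 252 CPM in OKMS and OKS cells and at 47.0 and 33.9 CPM in WT cells, without overlap (2.32 ± 0.41, SE, limma adjusted p = 0.036). Before induction, the R10 OKMS and OKS progenitors already stood at 42.6 and 39.1 CPM of Pim3, against 12.1 CPM in both WT progenitor libraries. The part of this earlier gap in the Pim3 difference was not tested. Pim1 was at 53.7 and 89.6 CPM against 18.8 and 20.4 CPM, and was not called (1.77 ± 0.44, SE, limma adjusted p = 0.11). Il6st was at 109 and 265 CPM against 565 and 347 CPM (-1.37 ± 0.50, SE, limma adjusted p = 0.23). The Pim3 call was lost without any of the 4 libraries, where its difference stayed between 2.01 and 2.63 and at most 0.686% of all genes were called (none in 3 of the 4 fits), and with quantile normalization or a pseudocount of 0.25. In R9 the difference itself was small, at 0.24, with Pim3 at 118.7 and 119 CPM in OKMS and OKS cells and at 100.4 CPM in the WT cells. Mitochondrial shares were 1.51 and 1.64% in the R10 factor libraries against 0.319 and 0.165% in the WT cells, and 0.688 to 0.727% in the 3 R9 libraries. Astrocyte markers summed to 678 to 1676 CPM in the R10 factor libraries against 2394 to 4461 CPM, and the part of either in the difference was not tested. Of the wider pathway limma called only Klf4 (6.52), itself among the induced factors. With edgeR 1 of 2 ligands and 4 of 22 STAT3-responsive genes were called, beside 2.17% of all genes. The WT serum-LIF libraries are those of the first comparison.

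Cells moved to 2i-LIF were compared with cells kept in serum-LIF over 5 pairs of the same system, day and chemistry. Doxycycline is named for the serum-LIF arm alone, so the medium and the induction of the factors cannot be told apart. None of the 8 members tested was called, beside 12.3% of 14935 genes called and 4194 at an unadjusted p under 0.05, and edgeR and DESeq2 called none either. Pim3 was lower in 2i-LIF in 5 of 5 pairs, at 86.7, 95.7, 66.3, 129 and 76.6 CPM against 204, 150.2, 218, 229 and 98.6 CPM. Its difference of -0.95 ± 0.20 passed the p threshold (SE, limma adjusted p = 0.0030) and not the fold threshold. Il6st was nominally lower in 5 of 5 pairs (-0.42, limma adjusted p = 0.47), by -0.035, -0.64, -0.054, -0.013 and -1.37 in the same order, some of them close to no change. Bcl3 was higher in 4 of 5 (0.93 ± 0.35, SE, limma adjusted p = 0.085). Markers moved with this contrast: of 8 pluripotency markers 5 were higher and 1 lower (median 1.06), and 3 of 5 astrocyte markers (median -2.79) and 3 of 4 epithelial markers (median -2.88) were lower, and their part was not tested. In the wider pathway, read beside the same 12.3%, 2 of 5 other receptor chains were lower in 2i-LIF cells, Cntfr (-2.66) among them. Of 15 SOCS, PIAS and phosphatase genes 2 were higher, Ptpn6 (1.41) and Pias2 (1.32), and 1 lower, Cish (-2.61). Of 21 other STAT3-responsive genes 1 was higher, the naive pluripotency factor Tfcp2l1 (2.09), and 5 were lower, with Myc at -3.64, Fos at -3.63 and Pim2 at -2.38.

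Against established stem cells in R10, the 2 day 18 libraries of 2i-LIF cells differed in 1 of 8 members, beside 9.06% of 15880 genes. Il6st was at 8.82 and 7.82 CPM in 2i-LIF cells and at 18.6 to 34.4 CPM in stem cells, without overlap (-1.49 ± 0.27, SE, limma adjusted p = 0.0060). The call was lost in edgeR (adjusted p = 0.053) and DESeq2 (adjusted p = 0.069), and the 2i-LIF libraries held 566599 and 638701 reads against 2226725 to 4236442. On simulated counts of these depths most limma calls in this comparison were false, unlike those of edgeR and DESeq2, so the limma count and its background are unreliable here. Lifr was at 5.29 and 15.6 CPM in the 2i-LIF cells and was not called (-1.83 ± 0.57, SE, limma adjusted p = 0.055). Bcl3 was at 24.7 and 25.0 CPM, within the stem cell range. The R9 libraries differed in both genes: Il6st overlapped there (7.52 to 22.1 CPM in 3 libraries of 2i-LIF cells against 15.1 and 27.9 CPM in stem cells), and Bcl3 was at 23.3 to 51.6 CPM, below the 85.2 and 93.1 CPM of stem cells. On average Stat3 (33.7 against 40.4 CPM), Socs3 (50.3 against 79.8), Pim1 (97.2 against 133) and Pim3 (82.9 against 132) were also lower than in R9 stem cells. Jak1 was higher (55.1 against 36.7 CPM). How many of all genes separate between so few libraries was not counted, so gaps between these groups are description only. No member was called in R9, beside 0.711% of 15479 genes.

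Placed side by side, the classes of R10 libraries ordered differently for each gene, as a description of class means. Il6st ran from WT serum-LIF cells (456 CPM), which overlapped no other class, over factor cells of day 2 (187 CPM) down to stem cells (25.7 CPM), progenitors (21.97 CPM), day 18 (15.3 CPM) and 2i-LIF cells (8.32 CPM). Lifr ran from progenitors (250 CPM) over WT serum-LIF cells (212 CPM) to stem cells (44.8 CPM), day 18 (16.9 CPM) and 2i-LIF cells (10.5 CPM). The progenitors and WT serum-LIF cells overlapped in Lifr, as did neighbours at the low end. For Socs3 the WT serum-LIF cells came first (209 ± 3.38 CPM) and the progenitors last (8.90 ± 4.00 CPM), with a gap below every other class, and in R9 the same classes stood first and last. Bcl3 ran from stem cells (31.4 CPM) and 2i-LIF cells (24.9 CPM), which overlapped, to factor cells of day 10 (7.64 CPM) and WT serum-LIF cells (5.38 CPM) and to progenitors at 0. Pim1 set the progenitors (9.08 ± 2.94 CPM) and WT serum-LIF cells (19.6 ± 1.16 CPM) apart from the other classes, whereas for Pim3 these 2 classes overlapped (26.5 ± 16.7 and 40.5 ± 9.22 CPM). Stat3 ran from WT serum-LIF cells (225 CPM) and factor cells of day 2 (204 CPM) over progenitors (83.6 ± 16.9 CPM) and stem cells (71.9 ± 10.3 CPM) to 2i-LIF cells (62.9 ± 1.71 CPM). Neighbours overlapped in the full order of classes, but WT serum-LIF cells and factor cells of day 2 both lay above all progenitors. Jak1 ran from factor cells of day 2 (109.6 CPM) and WT serum-LIF cells (89.7 ± 7.63 CPM) over progenitors (39.8 CPM) to stem cells (29.7 ± 5.39 CPM) and 2i-LIF cells (24.8 CPM). Again neighbours overlapped in the full order, while the first 2 classes lay above all progenitors. In R9 Osmr split into high classes, from WT serum-LIF cells (35.4 CPM) to factor cells of days 4 and 6 (16.5 CPM), and low ones, day 20 (0.719 CPM), progenitors (0.337 CPM), 2i-LIF and stem cells (both 0).

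Correlations of log2 level across libraries of 1 chemistry are given as a description, since libraries share conditions. Il6st and Stat3 had a Pearson r of 0.94 over the 23 R10 and 0.83 over the 22 R9 libraries, Il6st and Osmr 0.84 and 0.88, Pim1 and Pim3 0.72 and 0.80, Socs3 and Pim3 0.67 and 0.87, Socs3 and Pim1 0.67 and 0.63, and Bcl3 and Pim1 0.64 and 0.88. Lifr and Il6st had 0.57 in R10 and -0.59 in R9. Of 11518 genes compared, those most like Osmr were Atoh8 (0.96 in R10 and 0.95 in R9), Rnase1 (0.96 and 0.92), Klhdc8a (0.95 and 0.93), Clu (0.95 and 0.93) and Cst3 (0.95 and 0.92). Most like Socs3 were Apoe (0.94 and 0.92), Anxa11 (0.93 and 0.91) and Mvp (0.92 and 0.93), and most like Stat3 were the joined gene Omd_Ogn (0.96 and 0.86), Lrrc36 (0.96 and 0.93), Slc39a12 (0.95 and 0.88) and Pcp4l1 (0.95 and 0.84). For Lifr the likest genes in R10 did not carry over to R9, with Sec22c at 0.96 and -0.28, Tnrc6a at 0.95 and 0.24, and Tug1, a long non-coding RNA, at 0.95 and 0.07.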

How the data were processed

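Gene levels were CPM and transcript levels TPM, both deposited by the authors. Reads were aligned with minimap2 2.24-r1122 to mm10, per the submitters' processing notes. Whether TPM were corrected for length is not stated. Nonzero CPM values were divided by a step fitted for each library. All but the highest values were checked and gave whole numbers within 0.02 reads (100% of those checked), so reads and depth could be recovered. The gene table had 13 columns that matched no sample and were not used. Mitochondrial percent and transcript shares in percent were computed here from the values the authors deposited.

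The members and gene lists were chosen with earlier results of these data known. Tests used log2(CPM + 1) and limma 3.58.1 in R 4.3.3 (eBayes with trend, two-sided), over genes of at least 1 CPM in as many libraries as the smaller arm has. The course used moderated F tests with the system as an additive term, the OKMS and OKS comparison used day as a block, and that of media used the pair. This scale understates changes of low genes. Shares were tested after an arcsine square-root transform, over transcripts holding at least 10% of their gene. Named genes were all members, and of each list the called genes with the largest absolute difference, at most 3 in each direction; 1 of them is not reported here by name. Named transcripts were those leading in R10 progenitors, WT serum-LIF or stem cells, and those with a called share; Lifr.15 and the frame and end classes were added after their values were seen. Alternatives were a pseudocount of 0.25, other filters, quantile normalization, median centring, edgeR 4.0.16 and DESeq2 1.42.0 on the recovered reads, the other chemistry, blocks and left-out libraries. The fits were checked on simulated data, where limma made too many calls for 2i-LIF against stem cells and, to a lesser extent, for factors on day 2.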

Additional observations from a re-analysis of the deposited data

Results flagged for a closer look

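In groups of 4 to 10 libraries, the gap of the highest or lowest library to its nearest neighbour was compared with the range of the group. Of 25 such groups of member values 2 stood out, and chance alone flags about 1 in 20. Osmr was at 1.35 CPM in the R9 OKMS progenitor library and at 0 in the other 3 R9 progenitor libraries. That is 1 read, and with the others at 0 any single read stands out by construction, so this value says nothing beyond that read. Lifr was at 143 CPM in the R10 stem cell library of R1 without an n number, while the other 6 stem cell libraries were at 18.2 to 34.5 CPM. That library also carried 78.4 TPM of the 3′ fragment Lifr.116, against 3.58 to 9.10 TPM in the others, and a mitochondrial share in the low range of the WT progenitor libraries.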

How the results depend on the processing

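Over 1293 refits of single members, 1121 kept their direction and side of the threshold, 116 lost a call, 27 gained one and 29 changed sign, none of the last in a called member. The count of members called in WT serum-LIF cells (7) was lower in R9 and without a library, where 1 arm holds 1 library. WT replicates 2 and 3 share their numbers between the arms (correlation of deviations 0.474 over 14688 genes), which with 2 pairs was not taken as pairing; with the replicate block 8 members were called, Pim1 added (adjusted p = 0.014), of 5605 genes, and 160 transcripts. In stem cells against progenitors of R10 (5) the count was 5 without any library and 2 with the R1 library without an n number alone, and in R9 (4) it was 3 to 4 without a library. Without a library the course from day 0 (7) gave 3 to 7, while the share of all genes called went from 10.7% down to 5.06% at the lowest. Within serum-LIF (3) the counts were 0 with quantile normalization, 5 with median centring, 6 with edgeR, DESeq2 or added R10 libraries, and 0 to 4 without a library. For 2i-LIF against serum-LIF (0) median centring and the R9 pairs alone gave 1 each, and left-out pairs 0 to 1. For factors on day 2 (1) a pseudocount of 0.25, quantile normalization and R9 gave 0, DESeq2 2, and left-out libraries 0. OKMS against OKS (5) gave 2 to 5 without a day, with 2 without day 6 or day 10. For 2i-LIF against stem cells (1) edgeR, DESeq2 and R9 gave 0 and left-out libraries 1 to 2. Quantile normalization gave 1 member (0) in the interaction, and gene minimums of 2 and 10 TPM gave 2 and 0 with a called share (1). The cause of these moves was not tested, apart from the smaller number of libraries or genes.

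Signs reversed for Stat3 in R10 stem cells (0.026 with median centring, 0.085 with that R1 library alone) and Lifr within serum-LIF (-2.71 with R10 added). Over left-out libraries Lifr in WT serum-LIF cells ranged from -0.63 to 0.038, above 0 without replicate 3; Il6st in R9 stem cells from -0.18 to 0.66, below 0 without R1; Jak1 in the course from -1.10 (without OKS progenitors) to 1.57; and Pim3 within serum-LIF from -1.10 (without OKMS day 14) to 1.30. In 2i-LIF against serum-LIF Jak1 was at -0.56 and Stat3 at -0.011 in R10 pairs and Pim1 at 0.041 with median centring, and over left-out pairs Jak1 ranged from -0.16 to 0.31 and Pim1 from -0.30 to 0.24. For factors on day 2, Jak1 was at -0.66 and Bcl3 at 0.44 in R9, and over left-out libraries Osmr ranged from -0.63 to 0.18, Jak1 from -0.095 to 0.59, Stat3 from -0.44 to 0.11 and Socs3 from -1.31 to 0.11, each highest without OKMS. Pim3 in OKMS against OKS was at 0.081 with median centring and ranged from -0.42 to 0.20 over left-out days. In 2i-LIF against stem cells of R9, Jak1 was at 0.64 and Pim3 at -0.67. In the interaction Il6st was at 0.014 (median centring) and Osmr at 0.074 (quantile normalization).

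Of all genes, 3940 were called in WT serum-LIF cells, 1562 in R9 and 0 to 1141 without a library. The course from day 0 called 2078, 4573 with edgeR, and 971, 1101, 1107 and 1284 without OKS day 20, OKMS day 20, OKMS day 2 and OKS day 2. Within serum-LIF 1368 were called (406 higher, 962 lower), 2362 with median centring (1431 and 931), 3985 with edgeR, 2115 with DESeq2, 705 with quantile normalization, 5898 with R10 added and 434 to 797 without OKS day 20 (434), either library of day 14 or day 4, or OKMS day 2. For 2i-LIF against serum-LIF the counts were 1832, with 1166 in R9 and 188 in R10 pairs and 1210 without the OKS pair of day 20. For factors on day 2 they were 114, 74 with the lower pseudocount, 181 at a minimum of 5 CPM, 29 with quantile normalization, 399 with median centring (289 higher), 334 with edgeR, 464 with DESeq2, 0 in R9 and 0 without WT replicate 3, OKMS or OKS. For 2i-LIF against stem cells they were 1438, 868 at 5 CPM, 270 with edgeR, 453 with DESeq2 and 110 in R9. Median centring turned the OKMS against OKS split from 990 higher and 1577 lower to 1438 and 1234, and moved the median of R10 stem cells against progenitors from 0.01 to 0.24. Without day 6, OKMS against OKS called 1686 genes, and 2567 with all days. Shares in WT serum-LIF cells were called for 402 transcripts, and for 226 without the transform. Shallow libraries limit Osmr and Bcl3 most, with 490 and 1285 reads over all libraries.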
